A study of Mus musculus with 36 samples.

Results

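The genes described here encode nuclear subunits of the 5 enzyme complexes of oxidative phosphorylation, measured in transduced mouse CD8 T cells. They were chosen by symbol among genes that a probe set names alone: symbols of the forms Nduf (with a, b, c, s or v and a number), Sdha to Sdhd, Uqcr, Cox4 to Cox8 and Atp5. The choice gave 81 members of the 18193 genes measured, namely 35 of complex I, 4 of complex II, 8 of complex III, 17 of cytochrome c oxidase (complex IV) and 17 of ATP synthase (complex V). A gene with several probe sets was read from the one whose mean over all 36 arrays was highest.

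RNA came from 36 Affymetrix 3' expression arrays, 3 for each of 12 groups. The cells were OT-I CD8 T cells, whose transgenic receptor recognises an ovalbumin peptide, and all of them had received a short hairpin RNA and had been transferred into mice that bore B16, a melanoma line. The hairpin was directed at LacZ (a bacterial sequence, used as control) or at Ppp2r2d, Egr2, Ptpn2, Arhgap5 or Alk, and the cells of each transduction carry the tissue label spleen or tumor. The age and strain of the mice, the number of mice pooled and the promoter of the hairpins are not given in the labels, and nothing says that the 3 arrays of a group came from separate animals. A p therefore reflects how far arrays of a group spread, which may be technical.

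Complexes I to IV sit in the inner mitochondrial membrane. Complex I takes electrons from NADH and complex II from succinate; both pass them through coenzyme Q to complex III, cytochrome c carries them to complex IV, and complexes I, III and IV pump protons that drive ATP synthase. A few core subunits of complexes I, III, IV and V are encoded by mitochondrial DNA and are not among the members. In T cells the respiratory chain is known to support activation and the persistence of memory cells.

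Pigment cell genes ran against the tissue labels, and 4 arrays stood apart. The median of 12 melanocyte markers (such as Dct, Mlana and Tyrp1) was 2.65 to 4.66 on the deposited log2 scale under the label spleen (18 arrays) and -2.24 to -0.88 under the label tumor (18 arrays), and that of 13 macrophage markers read 2.01 to 4.70 against -2.84 to -0.95. B cell markers ran the other way, with medians of -2.36 to -0.26 in arrays labelled spleen and -1.41 to 0.50 in those labelled tumor, and T cell markers were high under both labels (5.67 to 6.59 and 4.65 to 7.22). The groups are therefore called labelled spleen and labelled tumor throughout. Whether the tissue labels were exchanged was not tested, and an exchange would turn the sign of every label difference given here. The 3' minus 5' signal of Gapdh, a measure of RNA integrity, was 2.94 on Ptpn2 array 1 labelled tumor and 0.25 to 1.39 on the other 35 arrays. The lowest value of an array was highest on array 2 of LacZ under the label spleen (-1.45), and under the label tumor on array 2 of Egr2 (-1.45) and array 3 of Ptpn2 (-1.38). Of 10 comparisons of a targeted gene with LacZ, 1 was called lower, that of Ppp2r2d in arrays labelled spleen (3.31 to 3.88 against 4.31 to 5.51, difference -1.37, adjusted p = 0.0286 by limma), and 0 were called higher. In 3 of the 10, those of Ppp2r2d, Egr2 and Ptpn2 labelled spleen, all arrays of the hairpin lay below all LacZ arrays.

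Most members are expressed strongly, and their promoters hold more matches to motifs of mitochondrial gene regulators than promoters at large. Of the 81 members, 71 lay above the 75th percentile of all genes by mean level and 10 below the 60th. RefSeq promoter windows (GRCm38.p6, 250 bases before to 50 after the start) were found for 66 members, 71 windows in all. Both strands were searched for 5 motifs. GCGCNTGCG, read by NRF1, a regulator of nuclear genes for mitochondria, was in 32.4% of the member windows and in 6.3% of all 32851 windows. CCGGAAG, read by ETS factors such as GABP, was in 23.9% and 8.9%, and AANATGGCG, read by YY1, in 12.7% and 2.4%. AAGGTCA, read by estrogen-related receptors, was in 11.3% and 4.7%, and TGACGTCA, read by CREB, in 4.2% and 1.8%. At least 1 of the first 3 motifs was in 57.7% of member windows and 15.5% of all windows. A match is a description of letters, not a binding site. The 150 bases before the start are given here for 4 members, 3 called lower and 1 called higher in arrays labelled tumor, with motif matches in capitals.
Sdhd: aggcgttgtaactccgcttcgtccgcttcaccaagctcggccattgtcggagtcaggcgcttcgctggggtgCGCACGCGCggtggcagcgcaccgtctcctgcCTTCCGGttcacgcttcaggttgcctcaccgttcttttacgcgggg
Uqcr11: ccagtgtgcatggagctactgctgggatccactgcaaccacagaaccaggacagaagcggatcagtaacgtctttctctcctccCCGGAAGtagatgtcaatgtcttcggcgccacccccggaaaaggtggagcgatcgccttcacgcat
Cox7a1: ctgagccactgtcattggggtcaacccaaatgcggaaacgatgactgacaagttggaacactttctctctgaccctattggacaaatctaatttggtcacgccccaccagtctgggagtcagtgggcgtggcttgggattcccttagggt
Cox7a2l: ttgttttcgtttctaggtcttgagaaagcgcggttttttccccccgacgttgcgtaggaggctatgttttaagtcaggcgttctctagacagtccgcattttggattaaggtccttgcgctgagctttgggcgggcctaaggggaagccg
The Sdhd window (chr9:50603850-50603999 on the minus strand) holds the NRF1 motif and the ETS motif, and the Uqcr11 window (chr10:80406822-80406971 on the minus strand) holds the ETS motif. The windows of Cox7a1 (chr7:30184021-30184170 on the plus strand) and Cox7a2l (chr17:83514334-83514483 on the minus strand) hold none of the 5 motifs in these 150 bases. Nor do those of Ndufb6 and Atp5g1, called lower, and Cox7b2 and Cox7c, called higher, which are not printed. Within the members the NRF1 motif did not go with the size of the label difference described next: its median was -0.62 for the 22 members with the NRF1 motif and -0.68 for the 44 with a window and without it. Over all genes with a window, 48.7% with the NRF1 motif were called lower and 32.1% without it. The shares were 47.9% and 31.6% for ETS, 46.7% and 33.5% for YY1, 41.5% and 33.8% for CREB, and 29.7% and 34.2% for estrogen-related receptors. The part of the motifs was not tested.

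Subunits of all 5 complexes were lower in arrays labelled tumor than in arrays labelled spleen. The label difference is the level in arrays labelled tumor minus that in arrays labelled spleen, on the log2 scale; its mean over the 6 transductions was fitted with limma over all genes, and a gene was called at an adjusted p under 0.05 over the 18193 genes. Of the 81 members, 67 were called lower and 4 higher. Of all genes 33.1% were called lower and 37.6% higher. The median mean label difference was -0.63 over the members and 0.13 over all genes. The difference was negative in 74 members. Of the 67 called lower, 29 were called lower again in each of 44 other fits, which were 8 other settings and the 36 fits that leave out 1 array. Centring each array on the median of its 18193 gene values gave the largest shift. Medians over all probe sets of an array were similar under both labels (-0.48 to -0.29 labelled spleen, -0.47 to -0.23 labelled tumor). The centring moved the median of all genes to 0.56 and that of the members to -0.20. It left 32 members called lower and 11 higher, beside 20.5% and 60.8% of all genes. The gap between the medians of members and all genes stayed at -0.76, as in the reported fit. That gap was -0.50 under quantile normalization, -0.47 with the filter on dim genes and -0.77 to -0.69 under the other settings. Quantile normalization called 66 lower and 6 higher, beside 28.2% and 36.9% of all genes. Of the 67, 64 were called lower again.

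**Figure D1:**
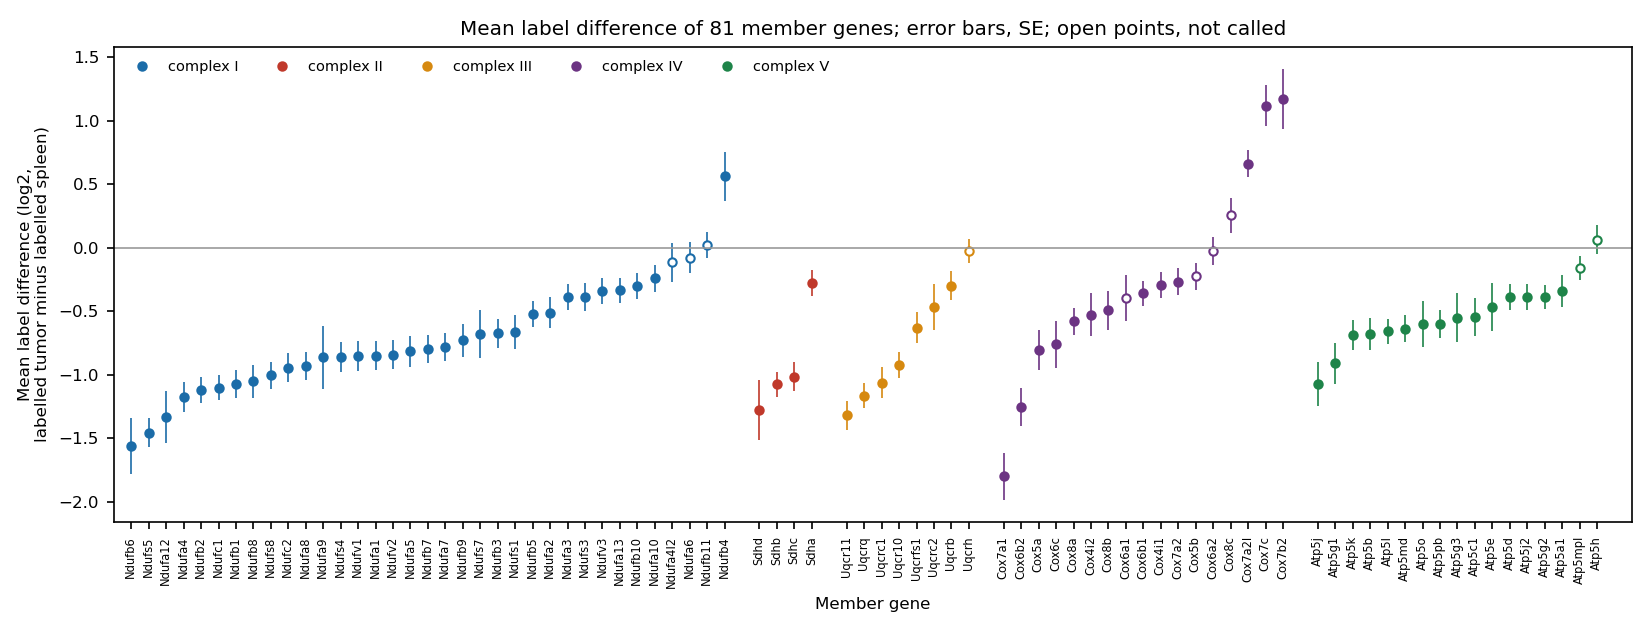
Mean label difference of each of the 81 members on the log2 scale (y axis; labelled tumor minus labelled spleen, mean over 6 transductions), grouped by complex and ordered by size (x axis), with the SE as the error bar and open points for members not called. Most filled points lie below 0, and the 4 called members above 0 are Ndufb4, Cox7a2l, Cox7c and Cox7b2.

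The same differences were laid out array by array, with each member set against its own mean over the 36 arrays. With 18 arrays per label, the means under the labels mirror each other by construction, so only their spread is new. The mean deviation of the 35 complex I members was 0.35 ± 0.18 in arrays labelled spleen and -0.35 ± 0.31 in those labelled tumor (SD, n = 18 each). Complex II gave 0.46 ± 0.22 and -0.46 ± 0.40, and complex III 0.37 ± 0.18 and -0.37 ± 0.27. Complex IV gave 0.13 ± 0.17 and -0.13 ± 0.31, the smallest gap of the 5, and complex V 0.26 ± 0.19 and -0.26 ± 0.38. Over all 81 members the arrays labelled spleen ran from -0.04 to 0.77 and those labelled tumor from -0.99 to 0.47, so the labels overlapped. The lowest array labelled spleen was LacZ array 3, the highest labelled tumor was Egr2 array 2 and the lowest was Ptpn2 array 1, and the last 2 are among the 4 arrays that stood apart.

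**Figure D2:**
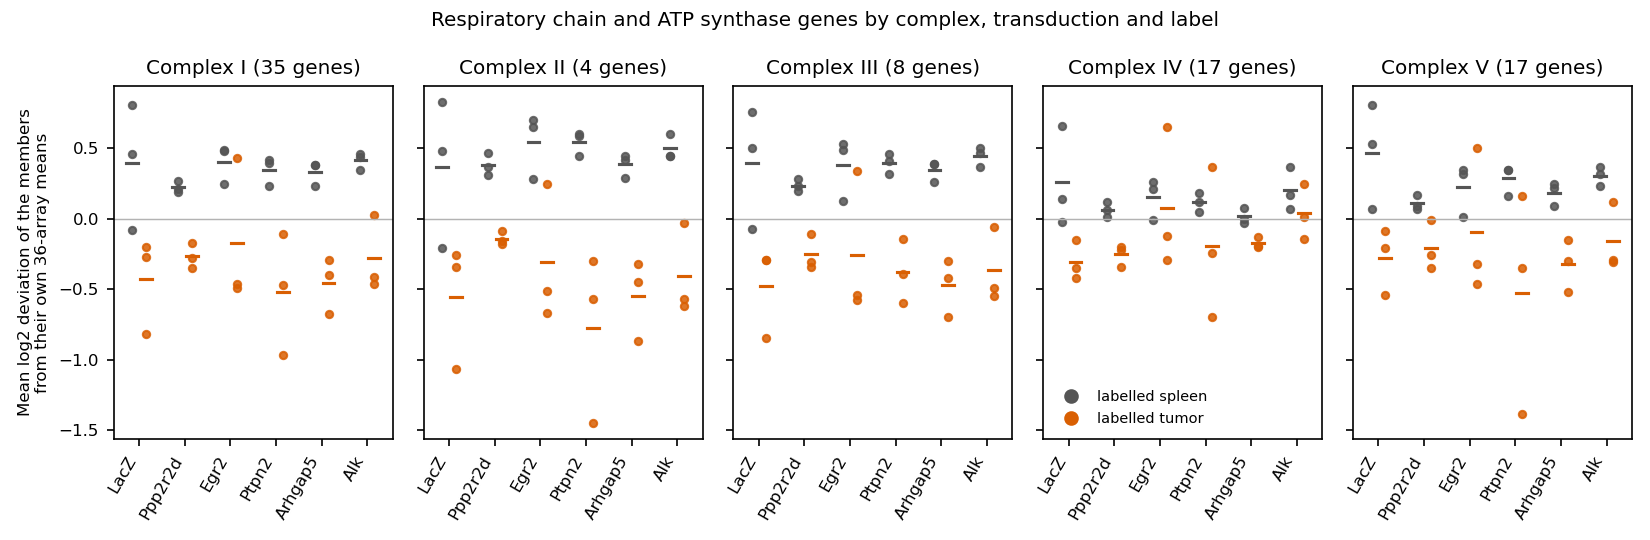
Mean log2 deviation of the members of each complex from their own 36-array means (y axis) in each array, by transduction (x axis) and label (grey, labelled spleen; orange, labelled tumor); bars are means of 3 arrays. In all 5 complexes the mean of each group labelled tumor lies below that of the same transduction labelled spleen, and the labels lie closest in complex IV.

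In complex I each group labelled spleen had a higher mean than each group labelled tumor. There the group means under the label spleen were 0.40 in LacZ, 0.22 in Ppp2r2d, 0.41 in Egr2, 0.35 in Ptpn2, 0.33 in Arhgap5 and 0.41 in Alk. Under the label tumor they were -0.43, -0.27, -0.17, -0.51, -0.46 and -0.28 in the same order. The SD of the 3 arrays reached 0.45 in LacZ labelled spleen and 0.52 in Egr2 labelled tumor. Within a label the arrays of every pair of groups overlapped, except that Ppp2r2d labelled spleen (0.19 to 0.27) lay below Alk labelled spleen (0.35 to 0.46). In complex V the means under the label spleen ran from 0.11 ± 0.05 in Ppp2r2d to 0.47 ± 0.38 in LacZ, and under the label tumor from -0.52 ± 0.79 in Ptpn2 to -0.09 ± 0.52 in Egr2. In complex IV the Egr2 and Alk groups labelled tumor lay at 0.08 ± 0.50 and 0.04 ± 0.20, within the range of the group means under the label spleen (0.02 to 0.26). The order of groups within a label changed when the arrays that stood apart were left out. Without those 4 arrays LacZ labelled spleen (2 arrays left) lay at 0.19 in complex I and 0.30 in complex V. Egr2 labelled tumor (2 arrays left) lay at -0.48 in complex I, -0.20 in complex IV and -0.39 in complex V, and the 1 array left of Ptpn2 labelled tumor at -0.47, -0.24 and -0.35. In complex V Egr2 was then the lowest group labelled tumor, and in complex IV only Alk remained within the range of the groups labelled spleen.

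Complex I, the entry point for electrons from NADH, had 31 of its 35 members called lower and 1 called higher, with a median difference of -0.80. All 6 measured nuclear core subunits, which hold the flavin and iron-sulfur centres or the quinone site (Ndufs1, Ndufs3, Ndufs7, Ndufs8, Ndufv1 and Ndufv2), were called lower, with a median of -0.76. Of the 29 other members, 25 were called lower and 1 higher. Ndufs5, an accessory subunit, read 4.37, 4.86 and 5.29 (lowest, median and highest) in arrays labelled spleen and 2.74, 3.41 and 4.09 in those labelled tumor. No array labelled tumor reached the lowest labelled spleen, and the difference was -1.46 (SE 0.12, adjusted p = 1.42e-12). Ndufb6, an accessory subunit of the membrane arm, read 5.17, 5.51 and 6.18 against 0.38, 4.15 and 5.00, again without overlap, with a difference of -1.56 (SE 0.22). Its lowest value came from Ptpn2 array 1, and without the 4 arrays that stood apart the difference was -1.39.

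Ndufa12, another accessory subunit, read 5.55, 6.04 and 6.37 against 1.35, 4.81 and 5.44, and its difference was -1.34 (SE 0.20) with all arrays and -1.15 without those 4. Ndufa4, named as a complex I subunit and counted there by its symbol, has since been assigned to complex IV. It read 5.33, 6.15 and 6.80 against 4.01, 4.93 and 5.61, and differed by -1.18 (SE 0.12). With it moved, complex I had 30 of 34 members called lower and complex IV 11 of 18. Its paralog Ndufa4l2, known for its induction by hypoxia, was dim under both labels (median -0.88 and -1.06) and was not called (-0.11, adjusted p = 0.504). Ndufa6 (-0.08, adjusted p = 0.565) and Ndufb11 (0.02, adjusted p = 0.855) were not called either. Ndufb4 was called higher (0.56, SE 0.19), but its probe set is among the dimmest of the array, with medians of -2.89 and -2.17. It is the only member that a filter on dim genes removed, and quantile normalization gave 0.09 (adjusted p = 0.509).

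Complex II, which also works in the citric acid cycle, had all 4 subunits called lower. Sdhb, the iron-sulfur subunit, read 5.25, 5.75 and 5.90 in arrays labelled spleen and 4.13, 4.64 and 5.27 in those labelled tumor, so the labels met only at the edges, and the difference was -1.08 (SE 0.10, adjusted p = 7.59e-11). The membrane anchors Sdhc and Sdhd differed by -1.01 (SE 0.11) and -1.28 (SE 0.24). Sdhd read 0.08 on Ptpn2 array 1 and 3.91 and 4.02 on the other two of that group, and its difference without the 4 arrays was -1.03. Sdha, the flavoprotein that binds succinate, differed least (-0.28, SE 0.10, adjusted p = 0.0185). For this probe set quantile normalization gave -0.01 (adjusted p = 0.934) and centring turned the difference to 0.15. Another bright probe set of Sdha (mean level 5.09) gave -0.72, and its dim ones (mean levels -1.58 and 0.01) gave 0.41 and 0.01.

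Complex III had 7 of 8 members called lower and none higher. Uqcr11, a small subunit, read 4.48, 5.09 and 5.29 against 3.02, 3.72 and 4.63, and differed by -1.32 (SE 0.11, adjusted p = 9.93e-12). Uqcrq, which lies beside cytochrome b, read 4.87, 5.42 and 5.64 against 3.73, 4.28 and 4.89 and differed by -1.17 (SE 0.10). The mean over its 4 probe sets gave 0.00, since the other 3 are dim (mean levels -2.72, -2.20 and 0.99) and differed by 0.20 to 0.54. Of the core proteins, Uqcrc1 differed by -1.06 (SE 0.12) and Uqcrc2 by -0.46 (SE 0.18). Uqcr10 differed by -0.92 (SE 0.10) and Uqcrb by -0.30 (SE 0.11). Their other probe sets gave -1.28 and -1.45 for Uqcr10 and -0.79 for Uqcrb. Uqcrh, the hinge protein for cytochrome c1, was not called (-0.02, SE 0.10), with medians of 6.85 and 6.70.

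**Figure D3:**
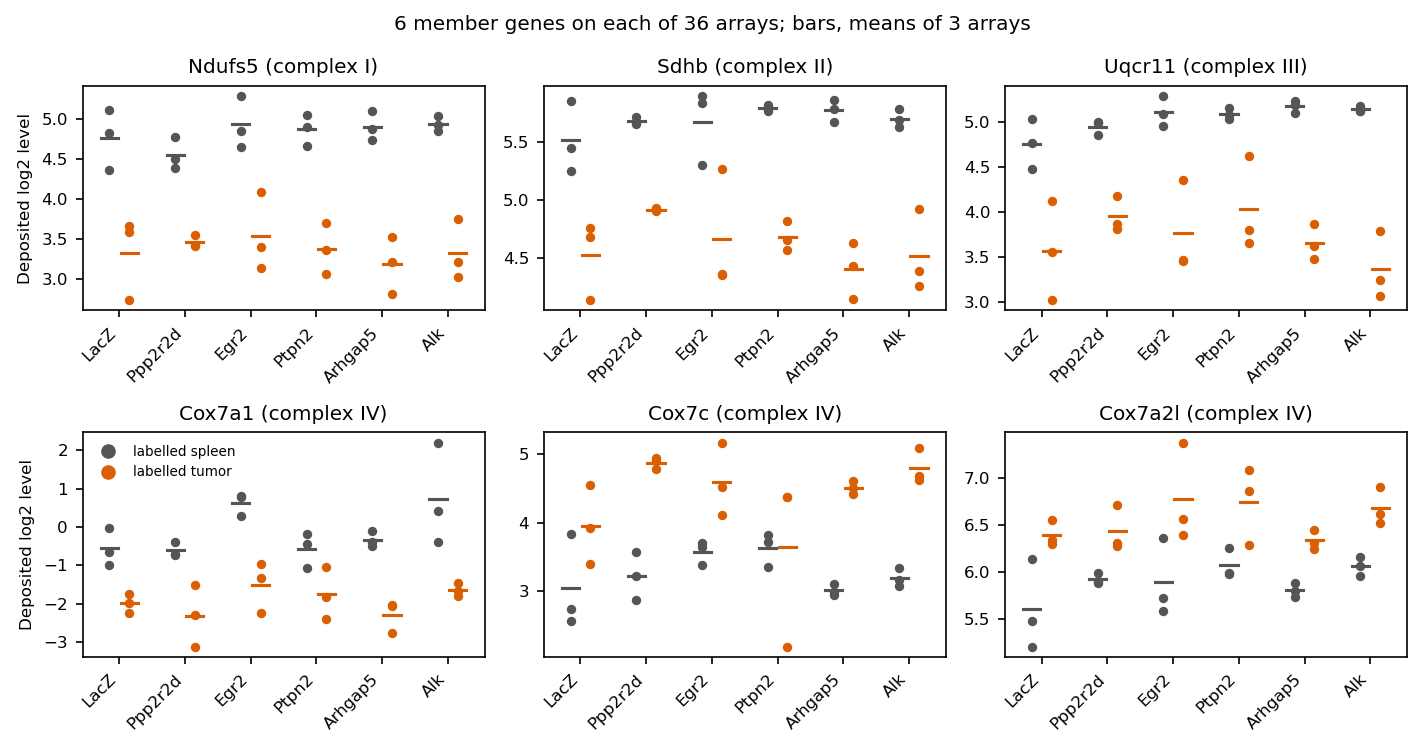
Deposited log2 level of 6 members (y axes) on each of the 36 arrays by transduction (x axes) and label; bars are means of 3 arrays. Ndufs5, Sdhb, Uqcr11 and Cox7a1 lie lower in arrays labelled tumor in all 6 transductions, and Cox7a2l lies higher.

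Complex IV was the most mixed, with 10 of 17 members called lower and 3 higher and a median difference of -0.36. Of the 9 isoforms found in most tissues 6 were called lower and 1 higher. Cox5a and Cox6c differed by -0.80 (SE 0.16) and -0.76 (SE 0.19), Cox8a by -0.58 (SE 0.11), Cox6b1 by -0.36 (SE 0.10), Cox4i1, which carries a regulatory site for ATP, by -0.29 (SE 0.10), and Cox7a2 by -0.27 (SE 0.10). Cox6a1 (-0.40, adjusted p = 0.0512) missed the threshold, and its other probe set gave -0.71. Other bright probe sets gave -0.63 for Cox6b1, -0.79 for Cox7a2 and -0.80 for Cox8a, but -0.47 for Cox6c. A dim one of Cox8a gave 0.86. Cox7c was called higher: it read 2.56, 3.28 and 3.83 in arrays labelled spleen and 2.19, 4.54 and 5.17 in those labelled tumor. Among arrays labelled tumor, Ptpn2 array 1 gave the lowest value and LacZ array 2 read 3.40, and all the others lay above every array labelled spleen. The difference was 1.12 (SE 0.16) with all arrays and 1.26 without the 4. Its other probe set gave 1.32.

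Cox7a2l, known as an assembly factor that joins complexes III and IV into supercomplexes, was called higher as well. It read 5.21, 5.94 and 6.36 in arrays labelled spleen and 6.25, 6.49 and 7.37 in those labelled tumor, a difference of 0.66 (SE 0.11, adjusted p = 3.27e-06). The remaining probe sets of the gene gave 0.59 and 0.65. Its paralogs went the other way. Cox7a1, the heart and muscle isoform, read -1.07, -0.39 and 2.20 against -3.12, -1.91 and -0.97 and had the largest difference of all members (-1.80, SE 0.19, adjusted p = 6.11e-10), at a level below the 40th percentile of all genes.

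The other isoforms that textbooks assign to particular tissues were also dim, and each lay below the 60th percentile of all genes. With Cox7a1 they number 7, of which 4 were called lower and 1 higher. Cox6b2, known from testis, read 0.24, 1.26 and 2.08 against -0.98, -0.02 and 1.53 (difference -1.25, SE 0.15). Cox4i2, known from lung, and Cox8b, known from muscle, differed by -0.53 (SE 0.17) and -0.49 (SE 0.15). Cox6a2 (-0.03, SE 0.11) and Cox8c (0.26, adjusted p = 0.0911) were not called. Cox7b2 was called higher (1.17, SE 0.24), from a median of -3.12 to one of -1.13, both at the low end of the scale.

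ATP synthase had 15 of 17 members called lower and none higher, with a median of -0.55. All 5 subunits of the catalytic F1 part were called lower, from -0.68 for Atp5b, the catalytic beta subunit, to -0.34 for Atp5a1, the alpha subunit. All 3 genes for the c ring, which turns as protons pass, were called lower: Atp5g1 by -0.91 (SE 0.16), Atp5g3 by -0.55 (SE 0.20) and Atp5g2 by -0.39 (SE 0.09). These genes encode the same mature protein with different targeting peptides. Of the 4 stalk subunits 3 were called lower. Atp5j, coupling factor 6, read 6.21, 6.46 and 6.83 against 2.60, 5.53 and 6.24, touching only at the edge, and differed by -1.07 (SE 0.17), or -0.95 without the 4 arrays. Atp5h, subunit d of the stalk, was not called (0.07, adjusted p = 0.603). Of the 5 small membrane subunits 4 were called lower, among them Atp5k (-0.68, SE 0.12), and Atp5mpl was not (-0.16, adjusted p = 0.135).

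In 5 members, Ndufa12, Ndufb6, Ndufc1, Ndufs5 and Atp5l, all 18 arrays labelled tumor lay below all 18 labelled spleen. This held for 6.51% of all genes.

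Above the 60th percentile of level, the members' difference was smaller the higher the level of the gene. The median over all genes shrank as well, with -0.37, -0.33, -0.27 and -0.02 from the lowest to the highest of the ranges given next. Of the 23 members in the top 2% of genes by level (above the 98th percentile), 17 were called lower, with a median of -0.36, and of all genes at that level 26.9% were. Between the 95th and 98th percentiles 18 of 19 members were called lower (median -0.60; 48.2% of all genes there), and between the 90th and 95th 17 of 18 (median -0.85; 52.6%). Between the 60th and 90th percentiles 10 of 11 were (median -1.12; 54.6%). Below the 60th percentile the order did not hold: 5 of 10 were called lower and 2 higher, with a median of -0.30. Of all genes there 20.1% were called lower and 48.7% higher. The part of level in the difference was not tested.

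**Figure D4:**
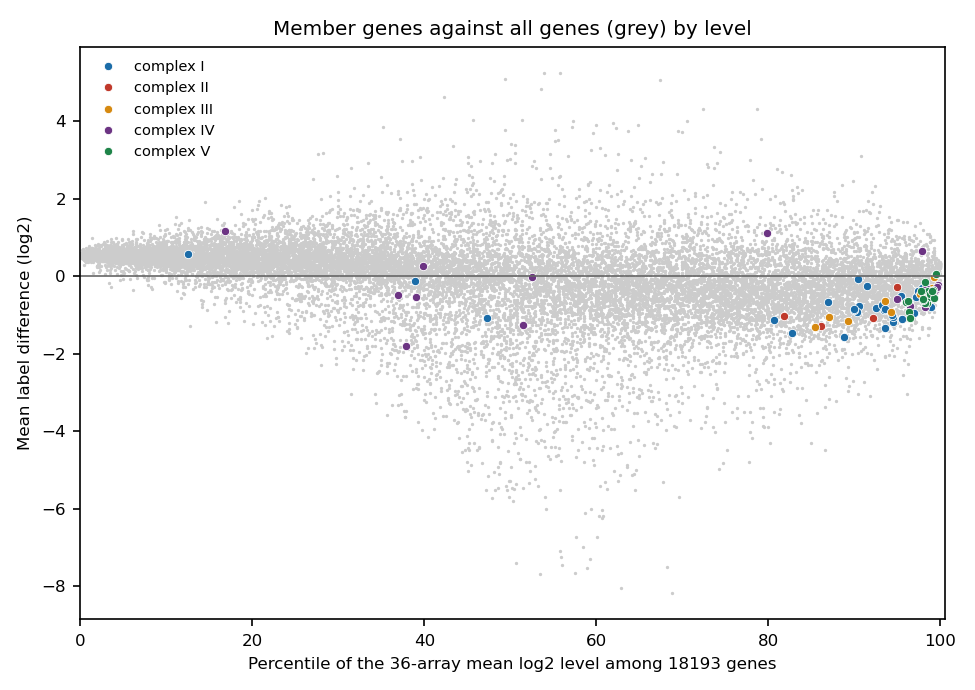
Mean label difference (y axis, log2) against the percentile of the 36-array mean level among 18193 genes (x axis), with members coloured by complex and all genes in grey. Members crowd above the 75th percentile, where most lie between -1.56 and 0, and the brightest lie nearest to 0.

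Several measures moved with the label beside the members. Of the marker lists, 11 of 12 melanocyte and 12 of 13 macrophage genes were called lower in arrays labelled tumor, and 7 of 7 B cell and 4 of 6 erythroid genes higher; of 10 T cell genes 1 was called lower and 3 higher, and of 8 stroma and endothelium genes 3 and 3. The Gapdh 3' minus 5' signal ran from 0.25 to 1.39 in arrays labelled spleen (median 0.53) and from 0.86 to 2.94 in those labelled tumor (median 1.05). The overlap came from LacZ, with 0.83 to 1.39 labelled spleen and 0.91 to 1.14 labelled tumor. In the 5 hairpin transductions no array labelled spleen read above 0.83 and none labelled tumor below 0.86. Over all arrays the SD of an array's values ran from 2.45 to 3.08 labelled spleen and from 2.21 to 3.04 labelled tumor. Their part in the members' differences was not tested, and in mixed RNA fewer cells of a type and less RNA per cell cannot be told apart.

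Other genes of the pathway were counted from lists set by function, to be read beside the 33.1% of all genes called lower and 37.6% called higher. Those shares are not matched for level. Below the 60th percentile 20.1% of all genes were called lower and 48.7% higher, and between the 60th and 90th 54.6% and 21.1%. Of 46 assembly factors 35 were called lower and 2 higher in the mean label difference (median -0.62). The lowest were Cox17, a copper chaperone for complex IV (-1.81), Ndufaf2, an assembly factor of complex I (-1.73), and Uqcc2, of complex III (-1.53). Lyrm7, which guides the Rieske protein into complex III, was called higher (1.75), as was Ttc19 (0.64). Lyrm7 was dim, at percentile 39.5 of level, with a median of -1.99 labelled spleen and -0.02 labelled tumor. Cytochrome c and other partners had all 6 measured genes called lower, among them the cytochrome c gene Cycs (-1.37), Cyc1, cytochrome c1 of complex III (-1.20), Ndufab1, the acyl carrier subunit of complex I (-1.46), and Atpif1, an inhibitor of ATP synthase (-1.57).

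Of 12 genes of coenzyme Q synthesis 10 were called lower and none higher (median -0.48), led by the hydroxylase Coq7 (-2.07) and the methyltransferase Coq3 (-1.94). Of 17 genes of the citric acid cycle and pyruvate entry 15 were called lower and none higher (median -0.59), with Fh1, fumarase, at -1.40 and Dlat, of pyruvate dehydrogenase, at -1.36. Proteins of the mitochondrial ribosome had 70 of 76 called lower and 1 higher (median -0.95). Of 11 genes of uncoupling and peroxide defence 8 were called lower and 1 higher (median -0.56), led by Gpx4 at -1.23. Of 18 regulators of mitochondrial biogenesis 7 (38.9%) were called lower, a share near that of all genes, and 2 higher (median -0.14). Most of the 18 lie between the 60th and 90th percentiles of level, where 54.6% of all genes were called lower. The coactivator Ppargc1a differed by -2.66 and its paralog Ppargc1b by 2.08, Tfb1m by -0.99, and Tfb2m by 0.61.

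Within each transduction the label difference rests on 3 arrays against 3, and fewer members passed the threshold. In LacZ 42 members were called lower and 1 higher (18.9% and 6.31% of all genes), with a median of -0.79 beside -0.48 over all genes. In Ppp2r2d 14 and 1 were called (14.5% and 8.1% of all genes; median -0.39 beside -0.11), a share close to that of all genes in this fit. Quantile normalization called 32 and 4 there, beside 16.3% and 16.9% of all genes. In Egr2 19 and 1 were called (15.9% and 10.5%; median -0.42 beside 0.25). In Ptpn2 45 and 3 were called (25.1% and 24.1%; median -0.78 beside 0.13), in Arhgap5 30 and 2 (21.6% and 10.7%; median -0.60 beside 0.03), and in Alk 31 and 4 (20.0% and 33.2%; median -0.56 beside 0.34). The 6 comparisons use separate arrays, but share 1 estimate of the spread.

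These counts moved with single arrays. The LacZ count of 43 fell to 27 without array 1 labelled spleen, to 17 without array 2 labelled spleen and to 20 without array 2 labelled tumor. The Ppp2r2d count of 15 was 9 without array 2 or array 3 labelled tumor, and the Egr2 count of 20 was 13 without array 2 labelled spleen or array 1 or 3 labelled tumor and 31 without array 2 labelled tumor. The Ptpn2 count of 48 was 28 without array 1 labelled tumor, and the Alk count of 35 was 20 without array 1 labelled tumor. Without the 4 arrays that stood apart the Ppp2r2d, Egr2 and Arhgap5 counts were 27, 53 and 52.

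Most members had a negative label difference in each transduction even where few were called. In 69 of the 81 members all 6 differences were negative, and this held for 28.0% of all genes. Called lower in each of the 6 were 11 members (13.6%, against 9.38% of all genes): Ndufa4, Ndufa8, Ndufb2, Ndufc1, Ndufs5 and Ndufs8, counted in complex I by symbol, Sdhb of complex II, Uqcr10, Uqcr11 and Uqcrq of complex III, and Cox7a1 of complex IV. Called lower in none were 22 members (27.2%, against 65.6% of all genes), and called higher in at least 1 were 4 (4.94%, against 42.5%), namely Ndufb4, Cox7a2l, Cox7b2 and Cox7c. Cox7a2l was called higher in LacZ, Egr2, Ptpn2 and Alk and gave 0.51 in Ppp2r2d and 0.53 in Arhgap5 without passing the threshold. Cox7c was called higher in Ppp2r2d, Arhgap5 and Alk, and gave 0.91 in LacZ, 1.03 in Egr2 and 0.01 in Ptpn2 without passing it. All 3 arrays labelled tumor lay below all 3 labelled spleen for 53 members in LacZ, 57 in Ppp2r2d, 21 in Egr2, 47 in Ptpn2, 66 in Arhgap5 and 46 in Alk; of all genes this held for 20.4%, 29.7%, 17.1%, 26.5%, 33.4% and 25.8%.

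**Figure D5:**
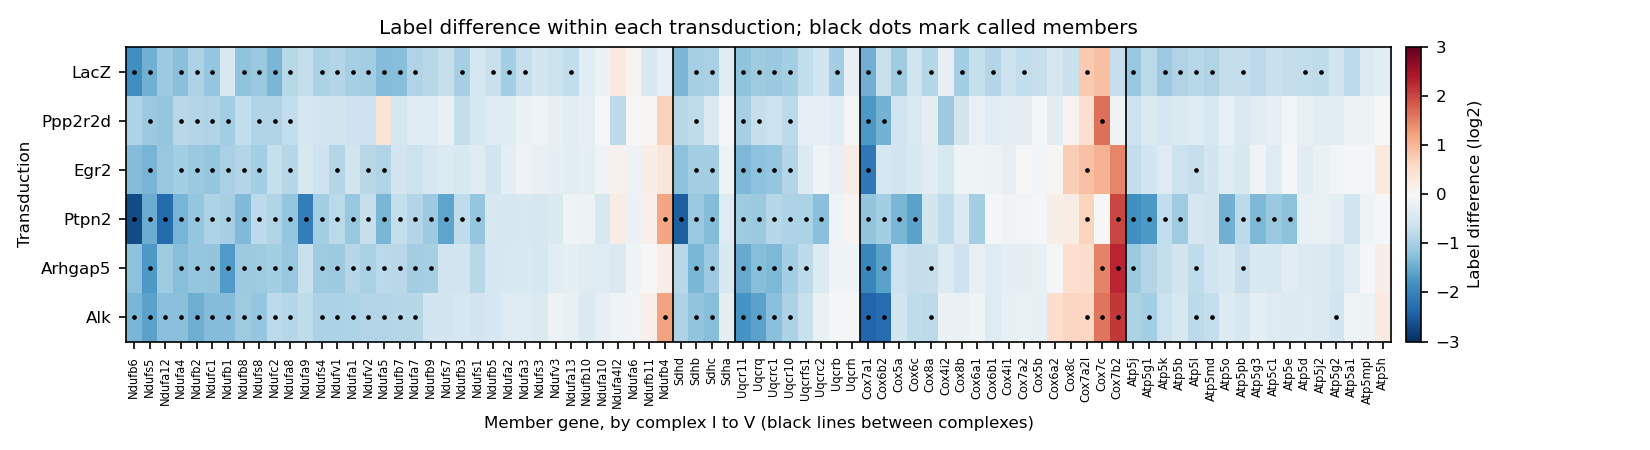
Label difference (colour, log2) of the 81 members, ordered by complex and by mean difference (x axis), within each of the 6 transductions (y axis); black dots mark called members. Blue, a lower level in arrays labelled tumor, fills most cells of every transduction, with the most dots in Ptpn2 (48) and LacZ (43) and the fewest in Ppp2r2d (15).

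The largest differences in each transduction came from a small set of members. Ndufs5 was among the 4 largest called in LacZ (-1.44), Ppp2r2d (-1.09), Egr2 (-1.40) and Arhgap5 (-1.72), and Cox7a1 in LacZ (-1.43), Ppp2r2d (-1.71), Egr2 (-2.14), Arhgap5 (-1.96) and Alk (-2.38). LacZ also had Ndufb6 (-1.85) and Ndufc2 (-1.37), and Egr2 had Uqcr11 (-1.35) and Uqcrq (-1.23). Ppp2r2d had Cox7c (1.65) and Cox6b2 (-1.42), and Alk had Cox6b2 (-2.28), Cox7b2 (2.12) and Uqcr11 (-1.78). Arhgap5 had Cox7b2 (2.28) and Ndufb1 (-1.70). In Ptpn2 the largest were Ndufb6 (-2.69), Sdhd (-2.47), Ndufa12 (-2.30) and Ndufa9 (-2.07). Array 1 of Ptpn2 labelled tumor read 0.62 for Ndufa9 where the other two read 5.20 and 5.32, and 1.35 for Ndufa12 where they read 4.89 and 4.95.

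The hairpins were next compared with LacZ under each label, to ask whether cells given a hairpin against 1 of the 5 genes had other levels of the subunits. Of the 10 target comparisons only that of Ppp2r2d labelled spleen was called lower. Egr2 labelled spleen (3.89 to 4.08 against 4.4 to 5.64 in LacZ) and Ptpn2 labelled spleen (3.94 to 4.67 against 4.76 to 5.7) also lay below LacZ without overlap, but were not called. In the remaining comparisons the arrays overlapped those of LacZ, and lower levels of the targets were not shown. In arrays labelled tumor limma called 0 members in each of the 5 comparisons. The shares of all genes called were 0.995% for Ppp2r2d, 0.0275% for Egr2, 0.764% for Ptpn2, 0.368% for Arhgap5 and 0.0055% for Alk. At an unadjusted p under 0.05 there were 1, 2, 5, 0 and 5 members in the same order. Without Ptpn2 array 2 labelled tumor 9 members were called in Ptpn2, and without array 3, 2; without LacZ array 2, 1 was called in Alk. Without the 4 arrays that stood apart 1 was called in Ppp2r2d and 5 in Alk, and quantile normalization called 1 in Ptpn2. The median difference of the members was 0.12, 0.23, 0.05, -0.04 and 0.13, beside 0.09, 0.29, 0.24, 0.06 and 0.33 over all genes. The 5 comparisons share the LacZ arrays.

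In arrays labelled spleen 0 to 2 members were called against LacZ in each comparison. Median centring of arrays called more, with 14 in Ppp2r2d, 3 in Egr2, 3 in Arhgap5 and 4 in Alk, all lower. Of all genes 22.8%, 6.98%, 14.4% and 21% were then called lower, in the same order. Ppp2r2d had 1 member called (12.8% of all genes), Ndufa5, an accessory subunit of complex I. It read 4.17, 4.38 and 4.47 in the Ppp2r2d arrays and 6.12, 6.05 and 5.17 in LacZ, without overlap, and the difference was -1.44 (SE 0.30, adjusted p = 0.00222). Egr2 had 0 called by limma (3.23% of all genes), and 6 at an unadjusted p under 0.05. Ptpn2 had 2 called (9.58%): Cox7b2 (-1.86) and Ndufb1, an accessory subunit of complex I, which read 1.01, 1.00 and 0.65 in Ptpn2 and -0.42, 0.29 and -0.05 in LacZ (difference 0.94, adjusted p = 0.0281). Arhgap5 had 1 called (8.89%), Cox7b2 (-1.88), and Alk had 1 (7.4%), Cox6b2, at 2.08, 1.76 and 2.01 against 1.17, 0.24 and 0.64 (1.27, adjusted p = 0.0339).

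Cox7b2 read -1.92 to -1.14 in LacZ labelled spleen and -3.64 to -2.19 in the other groups with that label, all near the foot of the scale. The Ptpn2, Arhgap5 and Alk calls rest on single arrays. The Ptpn2 count of 2 was 1 without any LacZ array labelled spleen or without Ptpn2 array 3 labelled spleen, and 0 without Ptpn2 array 1 or array 2. The Arhgap5 call was lost without LacZ array 2 or 3 or any Arhgap5 array labelled spleen, and the Alk call without LacZ array 2 or 3 or Alk array 2 or 3. The Ndufa5 call in Ppp2r2d held in each of these fits.

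The label difference of the 5 hairpins together was compared with that of LacZ in an interaction term. It called 2 members, both higher (14.7% of all genes were called): Cox7b2 (2.25, SE 0.64, adjusted p = 0.0257) and Cox8c (1.12, SE 0.36, adjusted p = 0.0414), both dim. The count was 0 without LacZ array 2 labelled spleen or LacZ array 1 or 3 labelled tumor, 0 with quantile normalization and 8 without LacZ array 3 labelled spleen. It was 1 without Ppp2r2d array 3 or Alk array 3 labelled spleen, or without Ppp2r2d array 2 or Alk array 1 labelled tumor. The members' median for this term was 0.19 and that of all genes 0.32.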

How the data were processed

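The values are log2 intensities that the authors deposited; the submitters' processing notes name RMA, with its version and settings not given in the sources used here. Per the labels, total RNA was extracted with Trizol and biotin-labelled in 1 cycle. The centring of arrays is unknown (medians over all probe sets of -0.48 to -0.23), so levels are relative. Of 45101 probe sets, 34945 name 1 gene, 932 several and 9160 none, and 64 are controls. Each of the 18193 genes was read from its brightest probe set.

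Groups came from the labels. The fit used limma 3.58.1 under R 4.3.3 (lmFit with 1 coefficient per group over 36 arrays, eBayes; 24 residual and 6.75 prior degrees of freedom), two-sided, with Benjamini-Hochberg adjustment over all genes in each of 18 comparisons. The procedure was tested on simulated data. Residuals of same-numbered arrays of both labels were at most weakly correlated (18 pairs, -0.24 to 0.24, 4 above 0.1), and the reported fit did not pair them. Weak correlation over so few arrays per group cannot show that such arrays came from separate animals or batches. Whether replicate numbers pair them is therefore not decided. The number of arrays limits the precision.

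The members, lists, named-gene rule and settings were chosen with earlier results of these data known. The rule names, per complex, up to 4 members with the lowest and 3 with the highest mean label difference, up to 4 called members per other comparison, isoform families and up to 4 called genes per pathway list. Alternatives were quantile normalization, median centring of arrays, a filter (above the 40th percentile in 3 arrays), the mean of a gene's probe sets, 2 replicate blocks, a mean over the 5 hairpins, leaving out 4 arrays (chosen after seeing the data) and leaving out each array. All 81 members matched the reference by gene ID.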

Additional observations from a re-analysis of the deposited data

Results flagged for a closer look

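In the label difference of the 5 hairpins minus that of LacZ, Cox7b2 gave 2.25 and Cox8c gave 1.12 on the log2 scale and passed the threshold of the interaction test in the reported fit (adjusted p = 0.0257 and 0.0414 by limma). These are 2 of 81 members, where 14.7% of all genes were called. Quantile normalization called 0 members, as did the fits that left out LacZ array 2 labelled spleen or LacZ array 1 or 3 labelled tumor. Cox8c read -0.60, 0.10 and -0.54 in LacZ labelled spleen and -1.63, -0.83 and -0.61 in LacZ labelled tumor. Both genes are dim, and no explanation was tested.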

How the results depend on the processing

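For the mean label difference, the settings other than median centring gave 66 to 74 called members beside 71, and leaving out each array 70 to 74; median centring gave 43. The replicate block gave 70 and the block by transduction 71, and a block changed a count by over 1.5 times in 1 case, LacZ by transduction (28). Centring gave 28 in LacZ, 4 in Ppp2r2d, 13 in Egr2, 24 in Ptpn2, 16 in Arhgap5 and 21 in Alk. Of all genes, centring called 13.5% lower and 8.54% higher in LacZ, 9.47% and 16.5% in Ppp2r2d, and 9.42% and 37.4% in Egr2. The shares were 14.8% and 43.7% in Ptpn2, 12.4% and 27.6% in Arhgap5, and 11.6% and 52.5% in Alk. Quantile normalization gave 36 in Ppp2r2d (16.3% and 16.9% of all genes) and 36 in Egr2 (16.8% and 17.4%). Without the 4 arrays the counts were 27 in Ppp2r2d, 53 in Egr2 and 52 in Arhgap5. Leaving out each array gave 17 to 51 in LacZ, 9 to 12 in Ppp2r2d, 13 to 31 in Egr2, 28 to 45 in Ptpn2, 22 to 31 in Arhgap5 and 20 to 36 in Alk.

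Against LacZ in arrays labelled tumor, quantile normalization gave 1 in Ptpn2, the fit without 4 arrays 1 in Ppp2r2d and 5 in Alk, and leaving out each array 0 to 9 in Ptpn2 and 0 to 1 in Alk. In arrays labelled spleen, quantile normalization gave 3 in Ppp2r2d, 1 in Ptpn2, 2 in Arhgap5 and 3 in Alk. Of all genes it called 4.7% lower and 6.82% higher in Ppp2r2d and 2.18% and 3.51% in Ptpn2. The shares were 3.37% and 4.83% in Arhgap5 and 2.68% and 4.94% in Alk. Centring gave 14 in Ppp2r2d, 3 in Egr2, 3 in Arhgap5 and 4 in Alk (shares of all genes given above). Without the 4 arrays the counts there were 2 in Ppp2r2d, 1 in Egr2, 4 in Ptpn2 and 3 in Alk, and leaving out each array gave 0 to 1 in Ptpn2, Arhgap5 and Alk. For the 5 hairpins minus LacZ, quantile normalization gave 0, centring 15, the filter 1, the fit without 4 arrays 1 and leaving out each array 0 to 8. Of all genes, quantile normalization called 1.71% lower and 0.808% higher, centring 0.956% and 32.5%, and the filter 1.59% and 4.34%.

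Of the 67 members called lower, 52 kept their sign under every setting. Centring turned the mean label difference of Sdha to 0.15, Uqcrb to 0.13, Atp5a1 to 0.09, Cox4i1 to 0.14, Cox6b1 to 0.07, Cox7a2 to 0.16 and Atp5g2 to 0.04. In complex I it turned Ndufa10 to 0.19, Ndufa13 to 0.10, Ndufa3 to 0.04, Ndufb10 to 0.13, Ndufv3 to 0.09 and the core subunit Ndufs3 to 0.04. Atp5d and Atp5j2 each turned to 0.04. The cause of these changes was not tested. Members at the foot of the scale (Ndufb4, Cox7b2) carry little signal over background.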
